A study of Homo sapiens with 15 samples.

Results

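The genes described are 5 genes best known from neurons, ELAVL3, NEFL, NEFM, INA and STMN2, among the 14432 genes measured in the study. They were chosen by name, through their gene identifiers, by a rule that uses no measured value. Earlier results of these data were known at that point, so the direction of their values is no independent evidence. All 15 samples came from HEK293T T-Rex, a line of human embryonic kidney cells adapted for inducible transgenes. RNA bound by PHC1 was measured in 2 PAR-CLIP libraries from cells that carried a PHC1 transgene, were kept under hygromycin and were grown overnight in 100 µM 4-thiouridine (4SU), with capture on streptavidin beads. RNA bound by RNA polymerase II (RNAPII) was measured in 1 library from cells grown in 4SU and 1 from cells grown in 6-thioguanosine (6SG), both without a transgene and captured with an antibody against the polymerase's C-terminal domain. Total nuclear RNA was sequenced in 2 libraries from cells with no transgene and no modified nucleoside. Chromatin was profiled by ChIP-seq with 2 libraries each of transgenic PHC1 and of a PHC1 mutant named PHC1-dFCS, and, from cells without a transgene, 1 library each of input, the histone marks H3K4me3 and H3K27me3, EZH2 and RNAPII. The study set PHC1-bound RNA against nuclear RNA, with RNAPII-bound RNA as the control.

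In PAR-CLIP, a nucleoside taken up into new RNA is crosslinked by ultraviolet light to the protein that touches it, and the bound fragments are sequenced as clusters of overlapping reads. PHC1 is a polyhomeotic subunit of Polycomb repressive complex 1, which keeps developmental genes silent together with the H3K27me3 mark laid down by EZH2, the catalytic subunit of Polycomb repressive complex 2. ELAVL3 is a neuronal Hu protein that binds AU-rich RNA and governs splicing and stability of neuronal messages. NEFL and NEFM encode the light and medium neurofilament subunits, and INA encodes alpha-internexin, all intermediate filament proteins of the axon. STMN2 is a stathmin that regulates microtubules in growing axons.

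Promoter sequence is shown for INA because it was the only member with an entry among the promoter sequences used here. INA is also 1 of the 2 members whose start site carried H3K4me3, a mark known from CpG-rich promoters. The 250 bases before its RefSeq start site, on the plus strand of GRCh38.p14 at chr10:103276888-103277137, are written below with each CpG in capitals.
INA: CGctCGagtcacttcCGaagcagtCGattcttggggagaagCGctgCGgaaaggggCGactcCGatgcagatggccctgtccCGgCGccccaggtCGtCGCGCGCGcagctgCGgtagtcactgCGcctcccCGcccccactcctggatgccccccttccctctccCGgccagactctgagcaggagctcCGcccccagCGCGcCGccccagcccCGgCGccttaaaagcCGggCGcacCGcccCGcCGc
This stretch held 30 CpG and was 72.8% G or C, against medians of 11 CpG and 58.0% over 35116 RefSeq promoter stretches of the same length. As many CpG were found in 12.4% of them. The letters GGGCGG, searched on both strands, occurred 4 times, and 42.6% of all stretches held them. The letters TATAAA did not occur on either strand, and 10.7% of all stretches held them. Nor did CACGTG, held by 6.34%, or the letters CCAAT, held by 32.0%.

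The PHC1 libraries held 696186 and 698056 clusters and the RNAPII 4SU library 667937, while the RNAPII 6SG library stood apart with 45259. Nuclear RNA libraries held 47187882 and 49626658 reads in genes. In PHC1 replicate 1 the 10 deepest clusters took 22.6% of all coverage. Nothing in the labels says that replicates came from separate cultures, so a p-value here reflects the spread among libraries, which may be technical. In comparisons with RNAPII that spread also holds the difference in nucleoside and depth between the 4SU and 6SG libraries. Values of the libraries are given per M, that is as per-million values. Each fold change below is a difference of log2(per-million value + 1), which understates the change of genes with low values. Groups of 2 libraries that do not overlap are weak evidence alone, and the share of all genes that show this is not given here. PAR-CLIP values are summed coverage of called clusters and nuclear RNA values are read counts, so a ratio between them joins unlike measures. PHC1 cells differed from the cells of the nuclear RNA also in the transgene, hygromycin and 4SU. The parts of these and of the assay in any difference cannot be told apart. The PHC1 and RNAPII libraries differed also in transgene and capture, and the 6SG library in nucleoside, which cannot be told apart either.

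On the hg19 build used by the authors, the gene regions were chr19:11562143-11591803 for ELAVL3 (gene identifier 1995), chr8:24808469-24814383 for NEFL (4747), chr8:24771274-24776606 for NEFM (4741), chr10:105036920-105050108 for INA (9118) and chr8:80523049-80578410 for STMN2 (11075). Their lengths were 29.7, 5.92, 5.33, 13.2 and 55.4 kb in that order.

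NEFL and INA were expressed in these cells, whereas ELAVL3, NEFM and STMN2 lay far below the median of all genes. NEFL had 6633 and 7032 nuclear RNA reads in the 2 libraries. INA had 2436 and 2447. ELAVL3 had 28 reads (exact 95% Poisson interval 18.6 to 40.5) and 19 reads (11.4 to 29.7). NEFM had 18 and 6 reads, and STMN2 had 8 and 5. Intervals cover counting error only, and in such bulk libraries fewer expressing cells and less RNA per cell cannot be told apart.

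Per M reads with TMM scaling, the level was 124 ± 0.387 (SD, n = 2) for NEFL and 44.5 ± 1.56 for INA. The other members stood at 0.431 ± 0.132 for ELAVL3, 0.222 ± 0.163 for NEFM and 0.119 ± 0.0432 for STMN2, and the median of all genes was 15.0. So 3 of the 5 members were under 1 per M in both libraries, beside 4318 of all 14432 genes. The name of neuronal genes expressed in HEK293 held for NEFL and INA alone at that level. Levels of different genes can be ordered only per length. Per M and per kb, NEFL was highest at 21.0 ± 0.0655, followed by INA at 3.38 ± 0.118, NEFM at 0.0416 ± 0.0306, ELAVL3 at 0.0145 ± 0.00446 and STMN2 at 0.00215 ± 0.000780. NEFM and ELAVL3, neighbours in this order, did not differ beyond their SDs. Both NEFM libraries, at 0.0632 and 0.0200, were nevertheless above both ELAVL3 libraries, at 0.0177 and 0.0114. Of all genes, 97.6% were lower per kb than NEFL, 82.4% lower than INA and 23.3% lower than ELAVL3. Whether reads in introns were counted is not given in the sources used here.

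**Figure D1:**
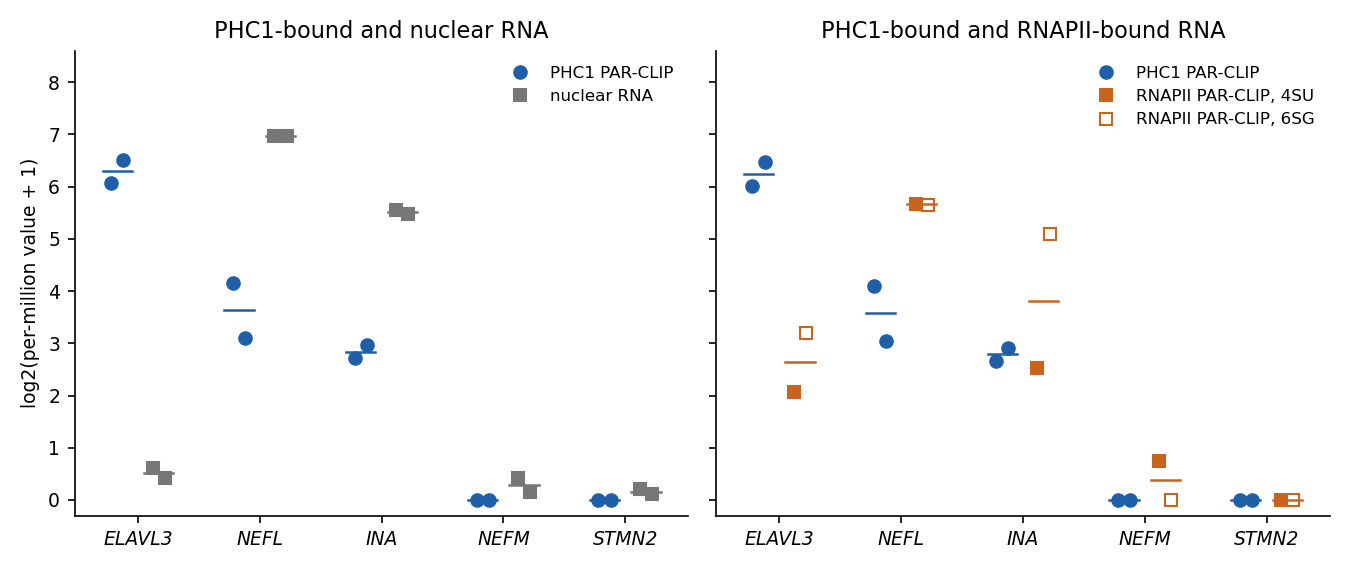
Per-million values of the 5 members on a log2(value + 1) scale, with 1 point per library; each panel shows 1 comparison with its own scaling and marks PHC1 or RNAPII PAR-CLIP and nuclear RNA. ELAVL3 lies above nuclear RNA in both PHC1 libraries, at 66.2 and 90.5 per M, and NEFL lies below it at 16.8 and 7.58.

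PHC1 clusters lay on ELAVL3, NEFL and INA and on neither of the other members. ELAVL3 held 26 and 31 clusters in the PHC1 libraries, 4 in the RNAPII 4SU library and 1 in the 6SG library. NEFL held 6 and 3 PHC1 clusters against 17 and 2 RNAPII clusters. INA held 5 and 7 PHC1 clusters against 6 and 2. NEFM had a single cluster, in the RNAPII 4SU library, and STMN2 had none in any library. The files list only clusters above the caller's minimum, so a gene listed with none gives no upper limit on binding.

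Among 4318 genes under 1 per M in both nuclear RNA libraries, 62.4% and 63.2% had no cluster in PHC1 replicates 1 and 2. ELAVL3 was among 13 of them with 26 or more clusters in replicate 1 and among 11 with 31 or more in replicate 2. Counted per kb, 98.7% and 99.1% of these genes held fewer clusters than ELAVL3. Among all 14432 genes, 3854 and 3319 held as many clusters as ELAVL3, and 72.8% and 78.2% held fewer per kb. NEFL held 1.01 and 0.507 per kb, beside 0.877 and 1.05 for ELAVL3. NEFM and STMN2 were the usual case among genes under 1 per M, of which 55.9% had no cluster in either PHC1 library, against 21.4% of all genes.

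On ELAVL3 most PHC1 clusters lay toward the upper end of the region: 24 of 26 in replicate 1 and 29 of 31 in replicate 2 had midpoints between 15 and 27 kb from its lower end. In replicate 1, 25 of 26 lay on the minus strand, and in replicate 2, 30 of 31 did. Measured from the lower end of the region, minus-strand midpoints ran from 0.41 to 26.2 kb in replicate 1, with 1 cluster in the lowest part, and from 10.3 to 26.5 kb in replicate 2. The deepest cluster took 16.0% and 10.7% of the gene's summed coverage. On NEFL 1 cluster took 72.0% and 76.6%, and on INA 31.7% and 26.2%, shares that also depend on how many clusters a gene holds.

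Of the ELAVL3 clusters in replicate 1, 17 of 26 (65.4%) overlapped a cluster of replicate 2, and 17 of 31 (54.8%) the other way. Over all clusters these shares were 66.4% and 70.2%. For INA, 4 of 5 and 4 of 7 were shared, and for NEFL 2 of 6 and 2 of 3. With the RNAPII 4SU library, 3 of 26 and 2 of 31 ELAVL3 clusters overlapped, beside 28.8% and 27.7% of all PHC1 clusters. Taken from the RNAPII side, 3 of its 4 ELAVL3 clusters met a cluster of PHC1 replicate 1 and 2 of 4 one of replicate 2, beside 34.6% and 31.4% of all RNAPII 4SU clusters. The deepest ELAVL3 cluster of replicate 1, chr19:11588118-11588168, had a mean coverage of 78.3 reads per base and met clusters of 69.8 and 69.5 in replicate 2. A place about 23.7 kb into the region carried clusters on both strands in each PHC1 library: the plus-strand cluster chr19:11585818-11585863 had a coverage of 56.4 in replicate 1 and the minus-strand cluster over it 50.7, and in replicate 2 these values were 66.3 and 53.6. The RNAPII 4SU library listed clusters of equal coverage, 20.25, on both strands at that place.

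**Figure D2:**
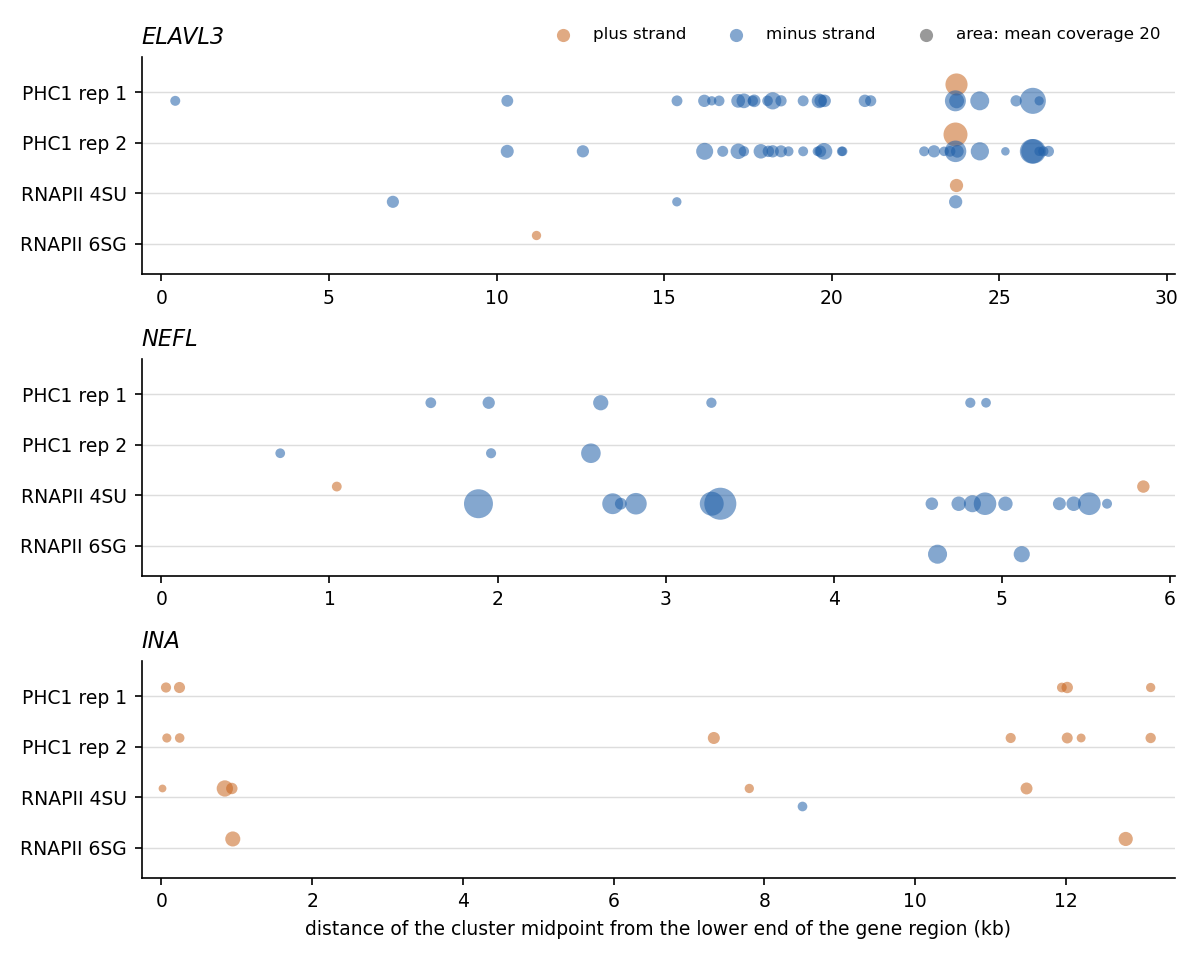
Midpoints of PAR-CLIP clusters along ELAVL3, NEFL and INA in kb from the lower end of each region, 1 row per library, coloured by strand and sized by coverage. ELAVL3 carries 26 and 31 clusters in the PHC1 rows and 4 and 1 in the RNAPII rows, while NEFL carries 17 in the RNAPII 4SU row.

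Set against nuclear RNA, ELAVL3 was higher in PHC1 PAR-CLIP, and NEFL and INA were lower. ELAVL3 stood at 66.2 and 90.5 per M in the PHC1 libraries and at 0.524 and 0.337 in nuclear RNA. The groups did not overlap, and the means differed 182-fold. That ratio sets summed cluster coverage over the whole region against 28 and 19 RNA reads, so it is no measured excess of bound RNA. Whether the RNA reads include introns is not given. The log2 fold change was 5.78 ± 0.226 (SE; adjusted p = 0.000155, limma with Benjamini-Hochberg adjustment), the 29th highest of 9362 genes tested. Of all genes tested, 35.5% were higher by this rule and 47.1% lower, and the median fold change was -0.33. ELAVL3 passed the filter on low values, 5 per M in at least 2 libraries, only through the PHC1 libraries, so it had to differ. Of 870 tested genes under 5 per M in both nuclear RNA libraries, 98.6% were higher, and ELAVL3 ranked 25th among them. Its fold change was 6.39 with a pseudocount of 0.5 and 3.92 with a pseudocount of 5.

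NEFL stood at 16.8 and 7.58 per M in the PHC1 libraries and at 124 and 125 in nuclear RNA, a difference of 10.2-fold in the means. Both PHC1 libraries were below both RNA libraries, with replicate 1 the higher of the PHC1 pair. The log2 fold change was -3.34 ± 0.388 (adjusted p = 0.00206, limma), the 560th lowest. INA stood at 5.54 and 6.82 against 45.6 and 43.4, again without overlap and 7.20-fold apart. Its log2 fold change was -2.67 ± 0.160 (adjusted p = 0.000316, limma), the 1160th lowest. NEFM and STMN2 did not pass the filter and were not tested. The count over the 5 members was thus 1 higher and 2 lower of 3 tested, a share that with so few genes is read only gene by gene.

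**Figure D3:**
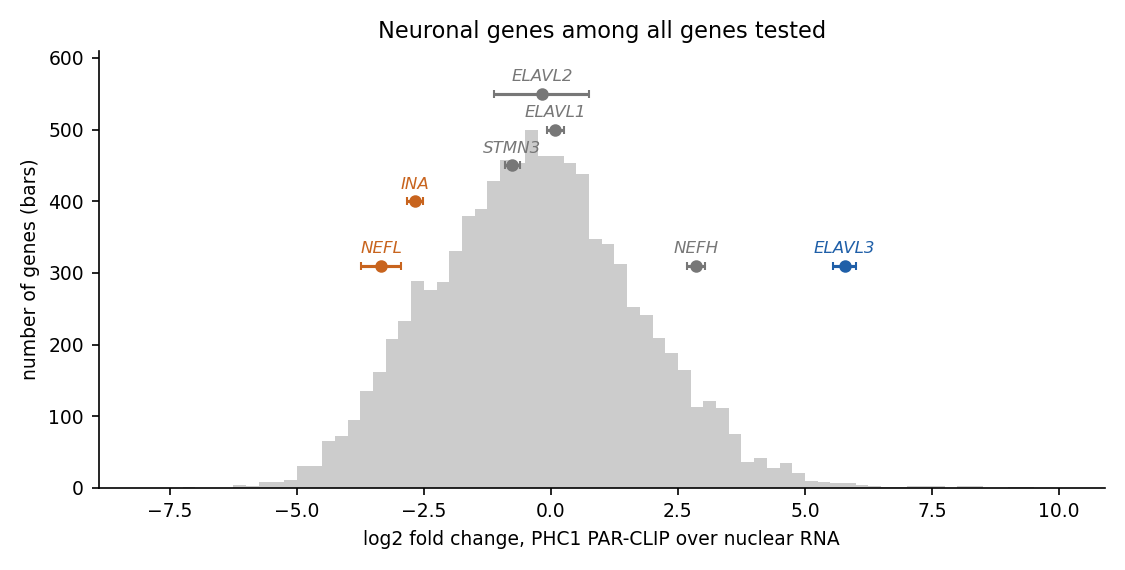
Distribution of log2 fold changes, PHC1 PAR-CLIP over nuclear RNA, over the 9362 genes tested (bars, number of genes), with ELAVL3, NEFL and INA marked. ELAVL3 sits far to the right at 5.78, and NEFL at -3.34 and INA at -2.67 lie left of the median of -0.33.

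The ratio of ELAVL3 to the filament genes within a library needs no scaling between libraries. Per kb, ELAVL3 over NEFL was 0.783 and 2.38 in the PHC1 libraries, 0.0128 and 0.0332 in the RNAPII 4SU and 6SG libraries, and 0.000842 and 0.000539 in nuclear RNA. ELAVL3 over INA was 5.31 and 5.90 with PHC1, 0.300 and 0.110 with RNAPII, and 0.00511 and 0.00345 in nuclear RNA. In both ratios, with clusters of either strand counted, the PHC1 libraries were highest, RNAPII intermediate and nuclear RNA lowest, with no overlap. The RNAPII 6SG value of ELAVL3 rests on 1 cluster on the plus strand, opposite to most of the gene's clusters. With only the strand that holds most of a gene's PHC1 clusters, a setting chosen after seeing the data, ELAVL3 over NEFL was 0.702 and 2.23 with PHC1 and 0.00953 with RNAPII in 4SU, ELAVL3 over INA was 4.76, 5.52 and 0.234, and ELAVL3 was listed at 0 in 6SG, so the place of RNAPII above nuclear RNA holds there for the 4SU library alone. The mean log2 ratio to NEFL was 10.99 higher with PHC1 than in nuclear RNA and 6.05 higher than with RNAPII. To INA these differences were 10.38 and 4.95. A 2-sided exact permutation test gave p = 0.333 for each of 6 comparisons, the smallest that 2 libraries against 2 allow.

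Against RNAPII PAR-CLIP no gene passed the threshold, and the members are given as values. The comparison shares the PHC1 libraries with the one above. With limma 0 of 8435 genes were higher and 0 lower (0.0% each), although without adjustment 14.2% (higher) and 7.69% (lower) had p below 0.05. The number of clusters, tested with edgeR, gave 1216 higher and 1091 lower genes, and DESeq2 gave 12 and 0. ELAVL3 stood at 63.7 and 87.1 per M with PHC1, at 3.20 with RNAPII in 4SU and at 8.21 in 6SG. Its log2 fold change was 3.60 ± 0.735 (adjusted p = 0.150, limma). NEFL stood at 16.2 and 7.29 with PHC1 against 49.8 and 49.3, with a log2 fold change of -2.08 ± 0.668 (adjusted p = 0.204, limma). Neither gene's groups overlapped, which with 2 libraries a side carries little weight where no gene passed. By mean coverage per covered base in place of summed coverage, ELAVL3 was 1.61 and NEFL -0.00459. The median fold change of all genes was 0.59. Without the 4SU library ELAVL3 was 3.01 and NEFL -2.10, and the median was 0.84. Without the 6SG library ELAVL3 was 4.15 and NEFL -2.08, and the median was 0.04. Each of these fits has a lone RNAPII library, which is assumed to vary like the others.

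INA gave overlapping values. They were 5.33 and 6.56 with PHC1, 4.75 with RNAPII in 4SU and 33.3 in 6SG, so the PHC1 values lay between those of RNAPII. The log2 fold change was -1.02 ± 1.26 (adjusted p = 0.641, limma). Without the 4SU library it was -2.33, and without the 6SG library it was 0.27.

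RNAPII PAR-CLIP was also set against nuclear RNA, which shares libraries with both comparisons above. With limma 0 of 8744 genes were higher and 0 lower (0.0% each), and without adjustment 11.4% (higher) and 12.4% (lower) had p below 0.05. NEFL stood at 59.2 and 59.7 per M with RNAPII and at 127 and 129 in nuclear RNA, a log2 fold change of -1.10 ± 0.245 (adjusted p = 0.137, limma). The groups did not overlap, and the median fold change of all genes was -0.68. Without the 4SU library NEFL was -1.25, the same as the median of all genes there, -1.25. Without the 6SG library NEFL was -1.10, and the median was -0.18. INA stood at 5.65 in 4SU and 40.3 in 6SG against 46.8 and 45.0 in nuclear RNA, a log2 fold change of -1.50 ± 1.12 (adjusted p = 0.430, limma). INA was -2.82 without the 6SG library, below the median there, and -0.34 without the 4SU library, above the median there. ELAVL3, at 3.81 and 9.94 against 0.538 and 0.349, failed the filter and was not tested.

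At the start sites, NEFL and INA carried H3K4me3, the mark of active promoters, and RNAPII, and at the other members no enrichment of either was detectable. NEFL had 353 H3K4me3 reads against 29 in input, which at equal depth is 11.0 times input (exact 95% interval 7.51 to 16.6). INA had 142 against 26, or 4.93 times input (3.23 to 7.80). RNAPII was 3.33 times input (2.15 to 5.27) at NEFL and 2.2 times (1.34 to 3.69) at INA. At ELAVL3 there were 15 H3K4me3 reads against 15 in input, a ratio of 0.902 (0.411 to 1.98), and 19 RNAPII reads, a ratio of 1.51 (0.726 to 3.19). NEFM had H3K4me3 at 1.19 times input and STMN2 at 0.686 times. Each mark has 1 library, so these intervals cover counting error only and there is no replicate check.

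For H3K4me3 and for RNAPII, 2 of 5 members reached 2-fold over input, against 62.5% and 47.5% of all promoters. The medians of all promoters were 6.03 and 1.88, so NEFL stood above the middle for both marks. INA stood below the median for H3K4me3, above 45.6% of promoters, and above it for RNAPII, above 56.6%. H3K27me3 and EZH2, the marks of Polycomb repression, reached 2-fold at 0 of 5 members, against 1.86% and 2.06% of all promoters. The highest H3K27me3 among the members was at NEFM, with 32 reads against 19 in input, a ratio of 1.52 (0.833 to 2.83), and there EZH2 was 1.48. At ELAVL3 these ratios were 1.14 and 1.35. At this depth an enrichment over input was not detectable at the 3 members with little RNA. The median ratio of all promoters was 0.756 for H3K27me3 and 0.997 for EZH2. NEFM, ELAVL3 and STMN2 had H3K27me3 ratios above 94.1%, 84.0% and 79.1% of promoters, and EZH2 ratios above 88.3%, 82.0% and 76.0%. For INA and NEFL these shares were 45.8% and 25.2% for H3K27me3 and 61.0% and 18.2% for EZH2. By ChIP reads without input, NEFM, ELAVL3 and STMN2 were above 91.5%, 50.4% and 87.7% of promoters for H3K27me3. For EZH2 these read shares were 78.1%, 33.7% and 88.6%. The ratios of ELAVL3 thus rest on its 15 input reads, and only 6.83% of promoters had fewer. Every promoter in the deposited table had at least 10 reads in every library, so the table may be a selection of promoters.

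**Figure D4:**
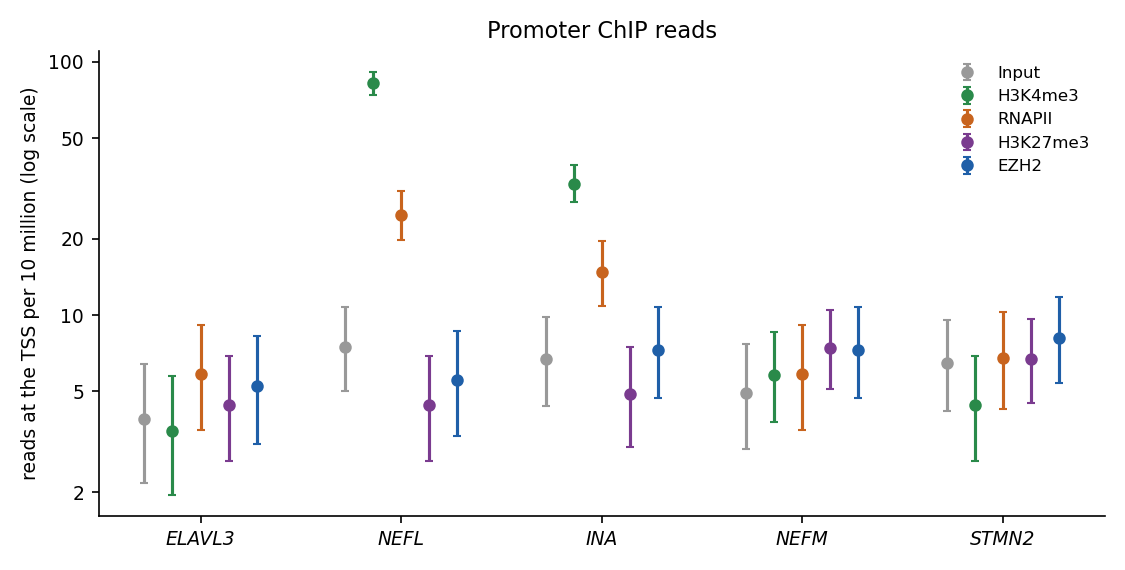
ChIP reads at the start site of each member per 10 M reads on a log scale, for input and each of 4 antibodies; bars are exact 95% counting intervals. H3K4me3 stands above input at NEFL, with 353 reads, and at INA, with 142, and lies on input at ELAVL3, NEFM and STMN2.

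PHC1 and PHC1-dFCS ChIP scores were the authors' reads per 10 M minus input, with both replicates joined in 1 value, so they have no SD and no test. The PHC1 score was 0.443 at ELAVL3, 0.215 at NEFM, -0.980 at INA, -1.63 at NEFL and -1.97 at STMN2, around a median of 0.0668 over all promoters. The PHC1-dFCS score was higher at each member, at 3.01, 2.72, 1.60, 0.673 and 0.284 in the same order, around a median of 1.13. Input was lowest at ELAVL3, at 3.87 reads per 10 M, against 4.90, 6.71, 7.48 and 6.45 at NEFM, INA, NEFL and STMN2. Before input was taken off, PHC1 was lowest at ELAVL3, at 4.31, against 5.12, 5.73, 5.86 and 4.48, around a median of 5.85. PHC1-dFCS was then 6.88 at ELAVL3 against 7.62, 8.31, 8.16 and 6.74, around a median of 6.91. The place of ELAVL3 at the top of both scores thus rests on its low input. With input added back, PHC1-dFCS over PHC1 was 0.64 on the log2 scale at ELAVL3, 0.56 at STMN2, 0.55 at NEFM, 0.52 at INA and 0.46 at NEFL. The median of all promoters was 0.24, with quartiles of 0.04 and 0.44, and 79.4% of promoters had a ratio above 1. All 5 members thus lay above the upper quartile, and ELAVL3 was higher than 91.1% of promoters. Depth of these columns is unknown, and the 2 promoters with H3K4me3 had the lowest ratios of the 5.

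**Figure D5:**
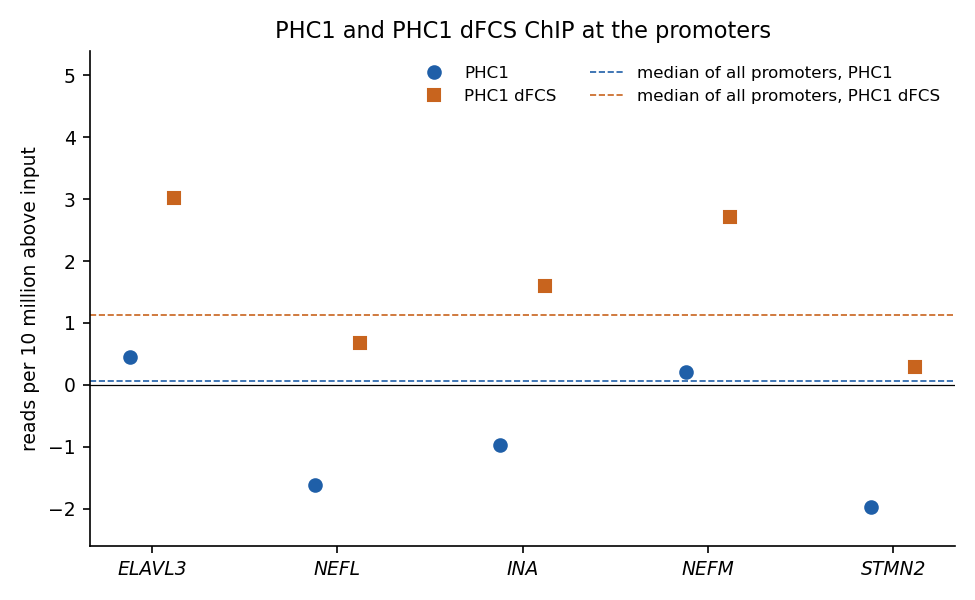
The authors' input-subtracted ChIP scores of PHC1 (circles) and PHC1-dFCS (squares) at each member, in reads per 10 M above input, with dashed lines at the medians of all promoters. Each square lies above its circle, from 3.01 over 0.443 at ELAVL3 to 0.284 over -1.97 at STMN2. ELAVL3 had the lowest input of the members, which raises its scores.

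The families of the members are given gene by gene for PHC1 PAR-CLIP against nuclear RNA. Of 4 Hu family genes 3 were tested, and ELAVL3 alone was higher, with none lower. ELAVL3 passed the filter through PHC1 alone and so had to differ. Of the other 2 tested, 0 were higher and 0 lower. ELAVL1, the ubiquitous Hu protein, stood at 168 and 124 per M against 133 and 137, a log2 fold change of 0.09 ± 0.167 (adjusted p = 0.640, limma) that is -0.27 when scaled by library totals alone. ELAVL2 stood at 267 and 42.7 against 122 and 121, and its PHC1 libraries lay on either side of nuclear RNA (-0.18 ± 0.933, adjusted p = 0.866), with -1.49 without PHC1 replicate 1 and 1.16 without replicate 2. ELAVL4 stood at 3.24 and 6.54 and failed the filter.

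Of 5 neuronal intermediate filament genes 3 were tested, with 1 higher and 2 lower. The higher one was NEFH, the heavy neurofilament subunit, at 14.8 and 11.8 per M against 1.05 and 0.887, a log2 fold change of 2.85 ± 0.176 (adjusted p = 0.000365, limma). Like ELAVL3, NEFH passed the filter through the PHC1 libraries alone and so had to differ. Of the other 2 tested, 0 were higher and 2 lower. PRPH, which encodes peripherin, had no PHC1 cluster and 3.03 and 3.18 per M of nuclear RNA, and it was not tested. Of 8 other intermediate filament genes measured, 6 were tested, with 1 higher and 3 lower. VIM (vimentin) was lower at -2.79 and LMNA (lamin A/C) at -0.86, and NES (nestin), which passed the filter through nuclear RNA alone, was lower with no PHC1 cluster in either library. LMNB1 (lamin B1) was higher at 0.87, though -0.70 by number of clusters. Among 3 stathmins STMN3 alone was tested and was lower at -0.76 ± 0.148 (adjusted p = 0.0102, limma), a call lost without nuclear RNA replicate 1 (adjusted p = 0.0638).

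Lists of other neuronal genes, read against the 35.5% higher and 47.1% lower of all genes, differed in their counts. Of 12 neuronal RNA-binding protein genes tested, 10 were higher and 2 lower; the median fold change was 1.58. Of the 10 higher genes, 5 (RBFOX1, CELF5, SRRM4, CELF4 and NOVA2) were under 5 per M in both nuclear RNA libraries, passed the filter through PHC1 alone and so had to differ; of the other 7 tested, 5 were higher and 2 lower. The largest were RBFOX1 at 5.26, CELF5 at 3.40 and SRRM4 at 3.21, all splicing regulators, and the lower were KHDRBS3 at -3.08 and NOVA1 at -1.94. Of 14 genes of the neuronal cytoskeleton tested, 2 were higher and 8 lower; the median fold change was -1.02; 2 of the 8, DPYSL4 and KIF21B, passed the filter through nuclear RNA alone. The tubulin genes TUBB2B and TUBB2A were lower at -4.47 and -4.45, and DPYSL4 was lower with no PHC1 cluster at all. KIF3C at 0.69 and DPYSL2 at 0.56 were higher, both lost when scaled by library totals alone (adjusted p = 0.0737 and 0.0666). The RBFOX1 region spans 1694 kb, and those of TUBB2A and TUBB2B span 3.88 and 3.47 kb, and the part of region length in these differences was not tested.

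Of 16 synaptic and secretory genes tested, 5 were higher and 9 lower; the median fold change was -1.07. CPLX2 passed the filter through PHC1 alone, and SYP, VGF and CHGA through nuclear RNA alone; of the other 12 tested, 4 were higher and 6 lower. CPLX2 at 3.44 and SCG5 at 3.32 were the largest, and SV2A at -3.30 and SYP (synaptophysin) at -3.03 were among the lowest, with VGF lower and without a PHC1 cluster. Of 6 genes tested from a list of neurogenic transcription factors, REST and its corepressors, 1 was higher and 5 lower. The median fold change was -1.94, and 2 of the 5, POU3F2 and MYT1, passed the filter through nuclear RNA alone. The higher gene was RCOR1, a corepressor that works with REST, at 2.11, and no neurogenic transcription factor tested was higher. POU3F2 was lower at -3.91, SOX4 at -2.30 and EBF1 at -2.48, the last lost without the filter on low values (adjusted p = 0.0664).

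Markers of other cell types are given in reads per M of library totals in nuclear RNA. Of 9 kidney epithelium markers measured, 4 were at 1 or more, led by LRP2 at 127, and their sum was 148 and 143 in the 2 libraries. Of 5 adrenal markers 1 was at 1 or more, with sums of 2.37 and 2.56. Of 4 glial markers 3 were, with sums of 47.7 and 44.9, led by MBP at 31.5. Of 4 fibroblast markers 1 was, with sums of 1.89 and 2.16, and of 6 blood markers 0 were, with sums of 1.02 and 1.21 and HBB at 0. Their part in the members' values was not tested.

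The genes next to the members had values of their own. PRKCSH, which ends 0.36 kb before ELAVL3 and encodes a subunit of glucosidase II, had 250 reads per M of library totals, 37 and 45 PHC1 clusters and a log2 fold change of 1.01 ± 0.127. CNN1, 57.8 kb after ELAVL3, had 0.383 reads per M and 7 and 4 PHC1 clusters. NEFM and NEFL lie 31.9 kb apart with RNA levels of 0.251 and 141 on the same scale. PCGF6, another Polycomb gene 12.4 kb after INA, had 152 reads per M, 152 and 182 PHC1 clusters and a log2 fold change of 2.70 ± 0.102, opposite in sign to INA. HEY1, 97.8 kb after STMN2, also had no PHC1 cluster, at 23.7 reads per M.

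The genes most like ELAVL3 over the 4 PAR-CLIP and 2 RNA libraries, by Euclidean distance of log2 values among 9516 genes, were RBFOX1 at a distance of 1.44, SORCS3 at 1.75, C1QL4 at 1.90, ALDH8A1 at 1.99 and BANK1 at 2.09. RBFOX1 had 52.4 and 69.7 per M with PHC1 and 0.633 and 0.370 in nuclear RNA on the scale of all 6 libraries, beside 69.6 and 94.98 and 0.493 and 0.320 for ELAVL3. The genes most like INA were PSMG3 at 0.792, ENDOD1 at 0.927, PNMA1 and CIPC at 1.01 and KRCC1 at 1.08.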

How the data were processed

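Nuclear RNA values were deposited as read counts per gene, with TopHat2 2.0.11 and build hg19 per the submitters' processing notes; the counting tool is not given in the sources used here. The PAR-CLIP signal the authors deposited is the mean read coverage of each cluster, called per library from reads processed with Bowtie 0.12.7 and SAMtools 0.1.19 per the same notes. Coverage times length was whole in 100.0% of clusters (tolerance 0.0001). The ChIP score the authors deposited is reads at the start site per 10 M minus input (Bowtie2 2.2.3, per the same notes); input and read numbers were recovered for all 14432 promoters within 1e-08, and 1 value column was not used.

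Summed coverage of clusters was given to a gene region by cluster midpoint, on either strand. Values as per-million (per M) (per M) of PAR-CLIP and RNA, scaled with TMM (edgeR 4.0.16) within each comparison, were tested as log2(value + 1) with limma 3.58.1 (trend and robust; R 4.3.3), after a minimum of 5 per M in at least 2 libraries. Tests were 2-sided, with Benjamini-Hochberg adjustment over all genes tested and a threshold of 0.05. Coverage is not a read count and cluster sums follow what was called, so count models (edgeR, DESeq2 1.42.0) served only as alternatives, on numbers of clusters. The method was tested on simulated data. Symbols were matched for 14378 of 14432 genes, and promoter sequence is from RefSeq.

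The members and the gene lists were chosen with earlier results of these data known, so their direction is no independent evidence. Named were the 5 members, all other measured Hu family, neuronal intermediate filament and stathmin genes, and of each other list up to 3 higher and 3 lower genes with the largest fold change past the threshold against nuclear RNA. The 5 genes nearest to ELAVL3 and to INA, and the genes next to members, were also named. A few genes that this rule or the marker lists hold are not reported here. Alternatives were other scalings, pseudocounts, filters, strand and cluster rules, and each library left out.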

Additional observations from a re-analysis of the deposited data

How the results depend on the processing

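For PHC1 against nuclear RNA, NEFL and INA kept their direction and stayed past the threshold under every alternative. ELAVL3 did so where it gave a value, which says nothing of its stability, since it passed the filter through PHC1 alone and had to differ; it has no value without either PHC1 library, where it fails the filter. With single libraries left out, ELAVL3 ran from 5.65 to 5.83, NEFL from -3.88 to -2.79, INA from -2.78 to -2.55, higher genes from 2830 to 3021 and lower genes from 2779 (without nuclear RNA replicate 1; 2780 without replicate 2) to 5097. Scaling by library totals alone moved the median of all genes from -0.33 to -0.72. Replicate numbers are shared by PHC1 and nuclear RNA, but deviations of same-numbered libraries correlated at 0.0362 over 9362 genes, so they share only a number; with the replicate block 3255 genes were higher and 4423 lower, and ELAVL3 was 5.78 ± 0.297. ELAVL1 reversed to -0.27 with library totals, -0.16 by number of clusters (an alternative chosen after seeing the data) and, with single libraries left out, ran from -0.13 to 0.34; ELAVL2 ran from -1.49 to 1.16, and LMNB1 to -0.70 by number of clusters. Of 345 values of named genes under alternatives that answer no comparison, 328 kept direction and call.

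For PHC1 against RNAPII, counts ran from 0 to 4333 higher and from 0 to 2248 lower with single libraries left out, with 4333 and 1853 without the 4SU library and 2707 and 2248 without the 6SG library. By number of clusters, edgeR gave 1216 and 1091 and DESeq2 12 higher. ELAVL3 ran from 3.01 to 4.15, NEFL from -2.61 to -1.57 and INA from -2.33 to 0.27. By number of clusters, edgeR gave 2.70 for ELAVL3 and -1.80 for NEFL, both past the threshold, beside 1216 higher and 1091 lower of 6556 genes. NEFL passed the filter of that fit through RNAPII alone, and ELAVL3 would not pass it without PHC1, so these calls are no support. In 6SG these genes held 2 clusters and 1 cluster. INA was 0.0975 by mean coverage per base. For RNAPII against nuclear RNA, counts ran from 8 to 3459 higher and from 2 to 5765 lower, with 2441 and 5765 without the 4SU library, 3459 and 4358 without the 6SG library and 8 and 2 without either RNA library. They were 58 and 201 with clusters on the gene's strand (known for 10969 genes, not for ELAVL3 or NEFL, which kept both strands), 178 and 1267 without the filter and 10 and 89 by number of clusters. NEFL ran from -1.25 to -1.09 and INA from -2.82 to -0.34. The cause of these shifts was not tested.

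PHC1-dFCS over PHC1, on the log2 scale and centred on the median, was 0.40 for ELAVL3, 0.22 for NEFL, 0.31 for NEFM, 0.28 for INA and 0.32 for STMN2. The log2 ratio of scores was 2.76 for ELAVL3 and 3.66 for NEFM and could not be taken for the others, whose PHC1 score is below 0. By library totals, nuclear RNA was 141 for NEFL and 50.5 for INA. Read numbers of 5 to 28 limit the RNA levels of ELAVL3, NEFM and STMN2, and 6SG depth limits what is seen with RNAPII.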
